A study of Arabidopsis thaliana with 12 samples.

Results

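ARL (ARGOS-LIKE, locus AT2G44080 on chromosome 2) was followed through 12 Affymetrix ATH1 arrays of Arabidopsis thaliana roots, on which a single probe set, 267230_at, is annotated to it, 1 of the 13647 probe sets tested. The gene was picked with results of these arrays in view because its drop with trans-zeatin in arr10 arr12 ranked first by a narrow margin. Its levels and differences are therefore given as a description, with standard errors and without p-values. Where ARL did not pass a test, this is said as a limit. Where it passed, the call is not used as support, because the gene was picked from these values. ATH1 is an oligonucleotide microarray, and its signal for a gene is a summary over a set of short probes.

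ARL belongs to a small plant family of membrane proteins named after ARGOS (AUXIN-REGULATED GENE INVOLVED IN ORGAN SIZE). ARGOS is induced by auxin and prolongs cell division in growing leaves, whereas ARL is known from seedlings as a brassinosteroid-induced gene that promotes organ growth through cell expansion. Members of the family also lower the sensitivity of plants to ethylene. Cytokinins such as trans-zeatin signal through a phosphorelay that ends at the type-B response regulators, transcription factors that include ARR10 and ARR12.

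Both genotypes were grown on vertical agar plates of Murashige and Skoog salts for 2 weeks and received trans-zeatin or its solvent DMSO, giving 4 groups of 3 arrays. The wild type was Col-0. The arr10 arr12 mutant carried the insertions SALK_098604 and SALK_054752, and its background ecotype is not labelled. Titles of the treated wild-type arrays say CK and those of the mutant TZ, while the treatment label reads trans-zeatin for all 6; neither dose nor duration is labelled. The labels do not say whether replicates were separate plant cultures, so all errors describe the spread between these arrays.

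Arrays were alike in scale, with a median signal of 39.3 to 41.6, and log2 signals of arrays within a group correlated at 0.976 to 0.991 across probe sets. The tissue is labelled roots, although the extraction text speaks of seedlings. Of 8 root genes on a marker list, only PYK10, a root beta-glucosidase, had a probe set with a single annotated gene, at a signal of 3140 to 4210. Of 7 leaf photosynthesis genes, RCA and LHCB4.1 had one, and their summed signal was 440 to 558 in wild-type DMSO, 462 to 484 in wild-type trans-zeatin, 331 to 349 in mutant DMSO and 345 to 362 in mutant trans-zeatin arrays. No marker with a probe set was at 0. ARR10 and ARR12 transcripts were not analysed here, so the mutant label was not checked at its target genes.

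ARL signal was highest in untreated wild-type roots and lowest in mutant roots given trans-zeatin. The 3 wild-type DMSO arrays gave 137, 157 and 213, a mean of 169 ± 39.6 (SD, n = 3). With trans-zeatin the wild type gave 81.4, 81.3 and 120.3, a mean of 94.3 ± 22.5 (SD, n = 3). Every treated wild-type array thus lay below every untreated one.

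Mutant DMSO arrays gave 79.5, 104 and 166, a mean of 117 ± 44.5 (SD, n = 3). This was the group with the widest spread, at 38.2% of its mean against 23.4% to 23.9% in the other groups. Mutant arrays with trans-zeatin gave 42.8, 26.7 and 33.8, a mean of 34.4 ± 8.11 (SD, n = 3). These 3 arrays lay below all 9 others, which held for 0.96% of the tested probe sets.

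From high to low, the group means ran from wild type with DMSO to mutant with DMSO, wild type with trans-zeatin and mutant with trans-zeatin. Mutant DMSO arrays overlapped with those of both wild-type groups. The last step was free of overlap. In whole roots, fewer cells that express a gene and less of its RNA per cell cannot be told apart.

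**Figure D1:**
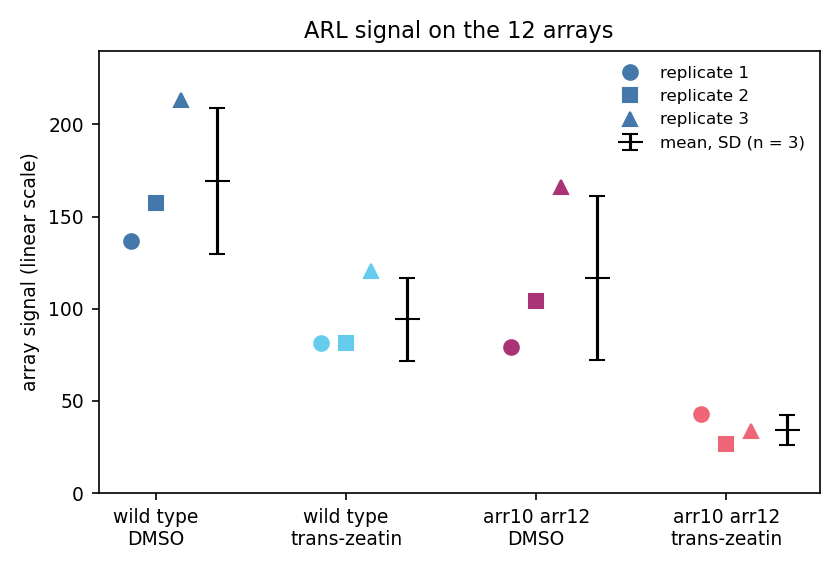
ARL array signal (linear scale, vertical axis) in the 4 groups of genotype and treatment, with a symbol for each replicate array and, beside them, the mean with its SD (n = 3). The mutant trans-zeatin arrays, at 26.7 to 42.8, sit below the other 9 arrays, and the mutant DMSO arrays spread over the range of both wild-type groups.

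The first comparison asked how ARL responded to trans-zeatin where both regulators are present. The treated mean was 55.8% of the DMSO mean, and the log2 difference was -0.80 ± 0.23 (SE). Log2 values were taken after adding an offset of 6.65 to every signal, which makes the changes of dim probe sets look smaller. Between single arrays, DMSO signal exceeded trans-zeatin signal by a ratio of 1.14 to 2.62. Arrays of both treatments did not overlap in this direction for 13.6% of tested probe sets. The ARL value ranked 119 of 13647 from the lowest, with 0.872% of probe sets at or below it.

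In arr10 arr12 the treated mean was 29.5% of the DMSO mean, with a log2 difference of -1.54 ± 0.23 (SE). Ratios between single arrays ran from 1.86 to 6.22, the highest against the brightest mutant DMSO array. Freedom from overlap in this direction was seen in 7.5% of tested probe sets, and in 2.9% it held in both genotypes at once. This was the value that chose the gene, and it stood first of 13647. The next probe sets in that order were AT5G40590 at -1.47 and 252340_at, which has no annotated gene here, at -1.44. Those neighbours had larger wild-type changes than ARL, -1.91 for AT5G40590 and -1.49 for 252340_at. The margin of ARL over AT5G40590 in the mutant was smaller than the SE of the ARL value. Without mutant DMSO replicate 3 the ARL value was -1.27, and the order under other settings is not given here.

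The drop in ARL was thus larger in the mutant than in the wild type on the log2 scale, by -0.74 ± 0.32 (SE). ARL was not among the 5 probe sets, 0.0366% of those tested, whose responses differed between genotypes in the fit (limma, Benjamini-Hochberg adjusted p under 0.05). The value moved to -0.47 without mutant DMSO replicate 3, the brightest of its group, and to -0.97 without mutant DMSO replicate 1, the dimmest. Between same-numbered arrays, in the order of replicate number, the wild-type log2 changes were -0.71, -0.90 and -0.79. Those of the mutant were -0.80, -1.73 and -2.09, so replicate 1 had nearly equal changes in both genotypes. In units of array signal, a scale chosen after the values were seen, ARL dropped by 74.8 ± 26.3 (SE) in wild type and by 82.1 ± 26.1 in the mutant, and the changes differed by -7.25 ± 37.1. The mutant started from a lower mean, and in signal units the difference between the changes was smaller than its SE.

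Among the other 660 probe sets called lower with trans-zeatin in wild type, 22 had a more negative change in arr10 arr12. Among the other 78 called lower in the mutant, 26 did. Each count leans toward the genotype whose arrays chose the probe sets, and neither tests ARL.

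**Figure D2:**
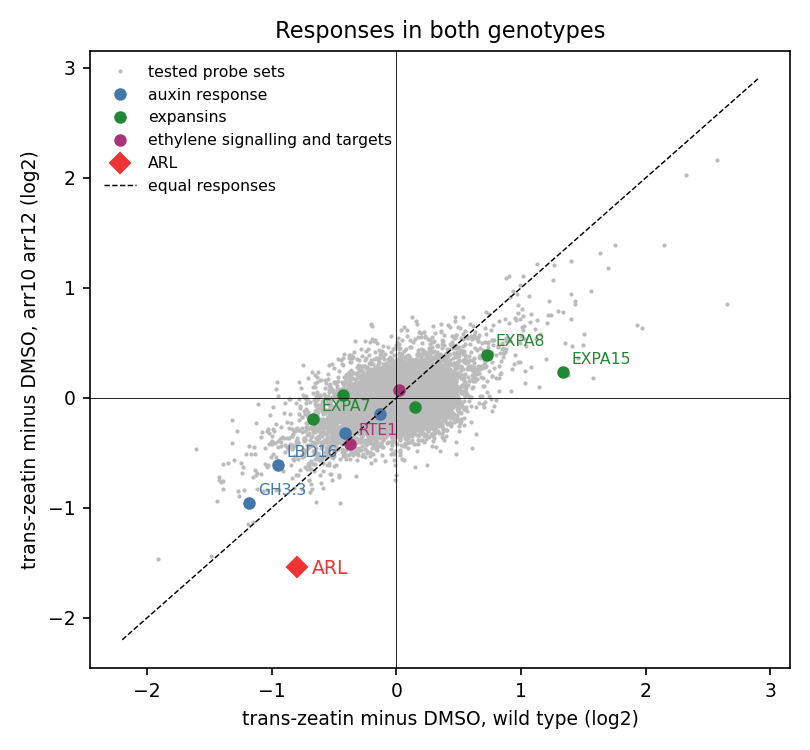
Log2 difference of trans-zeatin minus DMSO in wild type (horizontal axis) and in arr10 arr12 (vertical axis) for the 13647 tested probe sets, with tested members of the auxin, expansin and ethylene lists in colour and ARL as a diamond. ARL, at -0.80 and -1.54, lies below the dashed line of equal responses, on the side opposite to LBD16 and GH3.3.

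Between genotypes, ARL arrays overlapped under DMSO and did not overlap under trans-zeatin. Under DMSO the mutant mean was 68.9% of the wild-type mean, a log2 difference of -0.55 ± 0.23 (SE). The wild-type array was the brighter in 7 of the 9 possible pairs of single arrays. Between arrays of the same replicate number the log2 differences were -0.74, -0.56 and -0.35. With the replicate number as a block the SE was 0.17. Across probe sets, deviations from the group means correlated at only 0.04 to 0.08 in these same-numbered pairs. ARL was not among the 671 probe sets, 4.92% of those tested, that differed in this comparison. The difference moved to -0.32 without mutant DMSO replicate 1.

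Under trans-zeatin the mutant mean was 36.5% of the wild-type mean, a log2 difference of -1.29 ± 0.23 (SE). Ratios of wild-type to mutant signal between single arrays ran from 1.90 to 4.51. The arrays did not overlap, which was the case in this direction for 9.67% of tested probe sets, and the ARL value ranked 18 from the lowest. With an offset at the median signal it was -0.84. Across probe sets, deviations from the group means correlated at 0.13 to 0.16 in same-numbered arrays of these groups. For ARL itself the same-numbered log2 differences were spread widely, at -0.83, -1.40 and -1.65. With the replicate number as a block the SE was 0.17, the same value as under DMSO. The count of probe sets called in this comparison went from 309 to 471 with the block. The leaf genes RCA and LHCB4.1 moved in the same direction between genotypes, with log2 differences of -0.55 and -0.56 under DMSO and -0.50 and -0.34 under trans-zeatin. Both passed under DMSO, where 2.94% of tested probe sets were called lower, and RCA under trans-zeatin, where 1.41% were. The RCA calls were lost in 4 and 5 of 20 other settings. Their part in the ARL difference was not tested. The root gene PYK10 had differences of -0.16 and 0.01, and neither passed.

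**Figure D3:**
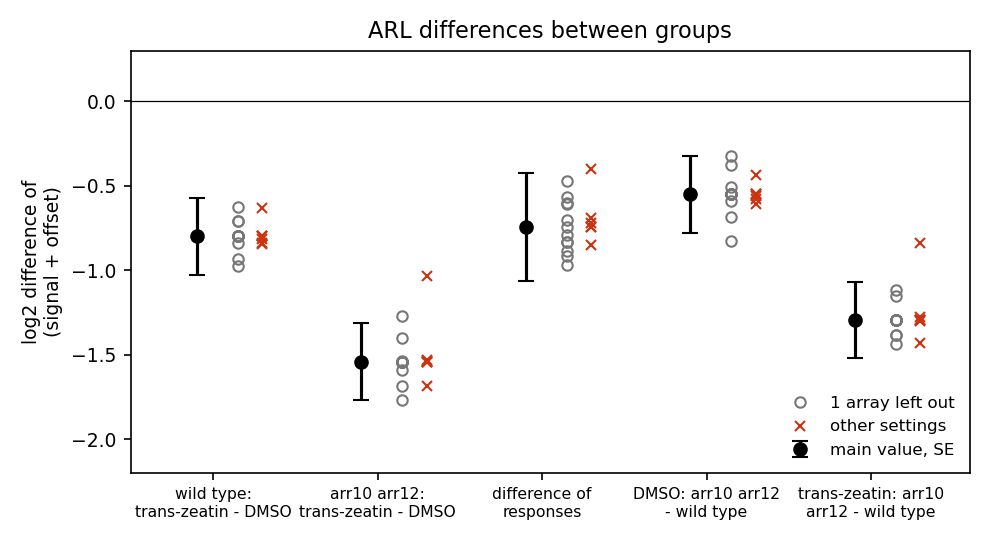
ARL log2 differences of signal plus offset (vertical axis) for the 5 comparisons, as the main value with its SE (filled circle), with each array left out in turn (open circles) and under the other settings (crosses). All values lie below 0, and those for the difference of responses run from -0.97 to -0.40.

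The 3 relatives of ARL on the family list, ARGOS, OSR1 and OSR2, had no probe set with a single annotated gene and were not analysed here. The same held for all 26 brassinosteroid genes, all 11 ethylene synthesis genes and all 6 cytokinin oxidases listed. Of the 143 genes on 12 lists, 23 had such a probe set and 16 passed the filter on dim signal, ARL included. The annotation used here had no entry for 8730 probe sets, so a gene not counted may still be on the array.

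Ethylene signalling, the pathway that ARGOS-type proteins dampen, was represented by 2 of 17 listed genes. RTE1, a membrane protein that promotes the activity of the ethylene receptor ETR1, fell in wild type from 81.2 ± 6.69 to 61.0 ± 2.33 (SD, n = 3), a log2 change of -0.38 ± 0.10 (limma adjusted p = 0.031). It was the single member of the list called, against 4.84% of all tested probe sets called lower, and the call was lost in 6 of 20 other settings. In arr10 arr12 its change was -0.42 (adjusted p = 0.061), and the difference between genotypes was -0.04 (adjusted p = 0.94). EIN3, the main transcription factor of the pathway, was at 401 ± 44.8 and 406 ± 13.7 in wild type and did not pass in any comparison. The median over both genes was -0.18 in wild type and -0.17 in the mutant, with 0.02 and -0.01 over all tested probe sets.

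Auxin response genes were represented by 7 of 22, of which 4 were tested. GH3.3, which encodes an auxin-conjugating enzyme, gave 48.0, 39.6 and 29.8 on wild-type DMSO arrays and 15.8, 12.9 and 11.4 on treated ones. It fell by 1.18 on the log2 scale in wild type (adjusted p = 1.8e-04) and by 0.96 in the mutant (adjusted p = 0.0056). LBD16, a transcription factor of lateral root initiation, fell by 0.95 in wild type and by 0.61 in the mutant (adjusted p = 0.010), the second call failing in 3 of 20 other settings. So 2 of the 4 tested members fell in each genotype and 0 rose, against 4.84% of all probe sets called lower in wild type and 0.579% in the mutant. Unlike ARL, both had the smaller log2 change in the mutant, by 0.22 for GH3.3 and 0.34 for LBD16, and neither of these differences passed (adjusted p = 0.76 and 0.45).

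The other tested auxin genes, GH3.5 (-0.41 in wild type, -0.32 in the mutant) and IAA18 (-0.13 and -0.14), did not pass. The medians of the 4 were -0.68 and -0.46. Between genotypes, GH3.3 was higher in the mutant under trans-zeatin, by 0.64 (adjusted p = 0.044), a call lost in 11 of 20 other settings; 0.857% of probe sets were called higher there. LBD29, IAA29 and GH3.1 lay below the filter. In a fit of all probe sets LBD29, a partner of LBD16, fell in both genotypes, from a mean signal of 19.4 to 4.78 in wild type and by 0.85 on the log2 scale in the mutant, the second call being lost in 13 of 19 other settings; 2.24% and 0.198% of all probe sets were called lower there. In that fit IAA29 (-0.67, adjusted p = 0.060) and GH3.1 (-0.12) did not pass in wild type.

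Expansins, which loosen cell walls during cell expansion, had 5 of 11 listed genes tested and did not move as a group. In wild type EXPA15 rose by 1.33 and EXPA8 by 0.73, while EXPA7 fell by 0.67 and EXPA18 by 0.43, the last lost in 12 of 20 other settings. EXPA4 did not pass (0.15). That is 2 up and 2 down of 5, against 3.71% and 4.84% of all tested probe sets, with a median of 0.15. In arr10 arr12 none of the 5 passed, with 0.616% and 0.579% of all probe sets called higher and lower, and the median was 0.02. EXPA15 was the single listed gene whose response differed between genotypes, by -1.10 ± 0.13 (adjusted p = 0.0031). Its 3 wild-type DMSO arrays lay at 375 to 448 and its 3 mutant DMSO arrays at 666 to 718, the opposite order to that of ARL. Under trans-zeatin EXPA15 differed by -0.34 between genotypes and did not pass (adjusted p = 0.082), but did with the replicate block (adjusted p = 0.047; 0.036 to 0.29 over 20 other settings). Under DMSO it was higher in the mutant by 0.76, and EXPA7 (-0.55) and EXPA18 (-0.49) were lower, calls lost in 7 and 8 of 20 other settings; 1.98% and 2.94% of probe sets were called in these directions.

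Of 21 further organ growth regulators, 3 had a probe set with a single annotated gene and 1 passed the filter. This was AN, the ANGUSTIFOLIA gene that shapes leaf width by polar cell expansion, at 191 ± 14.5 and 230 ± 7.19 in wild type (log2 change 0.26, adjusted p = 0.12) and 0.06 in the mutant. JAG and BPE, below the filter, did not pass in any comparison. As a check of the treatment, the type-A response regulators ARR15 and ARR16, classic cytokinin targets, were measured in the fit of all probe sets. ARR15 signal was 8.72 to 12.6 on wild-type DMSO arrays and 43.7 to 71.0 on treated ones, and 4.96 to 8.75 and 18.6 to 25.1 in the mutant. It rose in both genotypes, by 1.92 (adjusted p = 6.7e-05) and 1.15 (adjusted p = 0.014), the mutant call failing in 4 of 19 other settings; 1.77% and 0.251% of probe sets were called higher in that fit. ARR16 rose in wild type by 2.34 and did not pass in the mutant (0.71). Under trans-zeatin both were lower in the mutant, by -1.16 and -2.35, where 0.743% of all probe sets were called lower.

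Genes on either side of ARL were looked at for a shared shift along the chromosome. The 3 nearest genes before it with a probe set annotated to a single gene were COS1, which encodes a riboflavin synthesis enzyme, AT2G44060 and AT2G44065. The 3 nearest after it were AT2G44090, AT2G44120 and AT2G44195, at 1, 5 and 14 genes away. AT2G44195 lay below the filter with group means of 0.24 to 0.50, where the offset keeps log2 changes near 0. None of these genes passed in any comparison. Their log2 changes with trans-zeatin ran from -0.12 to 0.19 in wild type and from -0.19 to 0.04 in the mutant.

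The genes whose pattern was most like that of ARL were sought among 7311 tested probe sets with a single gene, by Pearson correlation of log2 values over the 12 arrays. These coefficients are the extremes of many and describe these arrays, which share their groups. AT5G42830, of the BAHD acyltransferase family, came first at 0.94, with 0.79 for deviations from the group means. Its group means were 105, 92.8, 90.3 and 63.3, in wild type with DMSO and trans-zeatin and then in the mutant with the same. The range was narrower than that of ARL, and wild type with trans-zeatin lay just above mutant with DMSO, the reverse of ARL. Neither response of AT5G42830 to trans-zeatin passed (limma adjusted p = 0.47 and 0.10). Its only call, lower in the mutant under trans-zeatin, was lost in 15 of 20 other settings. AT1G28260 came next at 0.92, with 0.77 for the deviations, and did not pass in any comparison.

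AT5G51440, which encodes a small heat shock protein, correlated at 0.92, with 0.39 for the deviations. Its group means in the same order were 73.6, 44.4, 54.2 and 24.8. It fell by 0.64 in wild type and by 0.95 in the mutant on the log2 scale. Genes picked for likeness to ARL share much of its pattern by that choice. Their falls are therefore a description and not a test. AT2G18690 at 0.91 and AT1G14890 at 0.90 completed the 5, with 0.49 and 0.79 for the deviations; AT2G18690 fell by 0.59 in both genotypes, the mutant call being lost in 6 of 20 other settings.

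The 5 lowest correlations were those of AT3G06440 (-0.93), AT2G14460 (-0.92), KINESIN-13A (-0.90), AT4G32470 (-0.88) and UGT84A1 (-0.88). KINESIN-13A encodes a microtubule motor protein and UGT84A1 a glucosyltransferase for hydroxycinnamic acids. UGT84A1 had group means of 21.1, 30.6, 31.9 and 47.5 in the order used above, lowest where ARL was highest and highest where ARL was lowest. None of these 5 passed in any comparison, and the group means of AT4G32470 ran only from 1140 to 1280. Without the 2 arrays farthest from the ARL median, mutant trans-zeatin replicates 2 and 3, the 10 coefficients had the same signs, at 0.82 to 0.95 and -0.89 to -0.77.

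**Figure D4:**
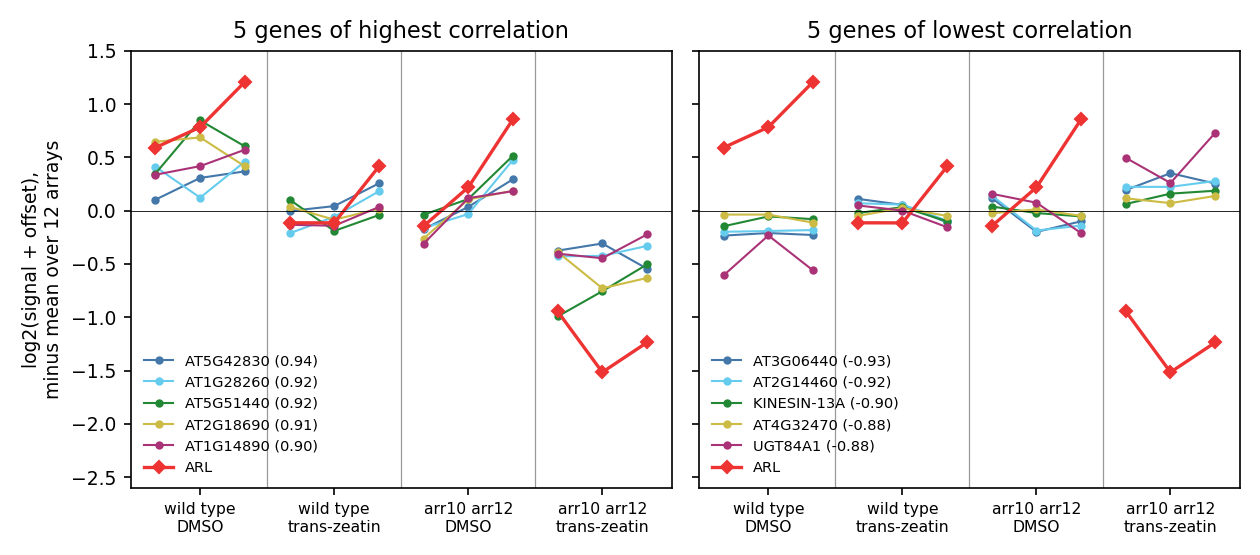
Log2 of signal plus offset minus the mean over the 12 arrays (vertical axis) for each array, grouped by genotype and treatment, for ARL and the 5 genes of highest (left) and lowest (right) Pearson correlation with it. Lines join arrays of a group and imply no order; ARL has the widest range in both panels.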

How the data were processed

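The deposited values are array signals, that is linear intensity values, for which the submitters' processing notes name MAS5 and GCOS without versions. The 2%-trimmed mean of the values lay between 99.3 and 99.4 on every array, so the values were used without further normalization. Of 22810 probe sets, 64 controls were left out. Probe sets were named through the platform annotation and the TAIR10.1 gene table; 13513 had 1 gene, 503 several and 8730 no entry.

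The 25th percentile of all values, 6.65, was added before log2, and 13647 probe sets with a mean log2 value above the 40th percentile (a signal of 23.1) were tested. A mean per group was fitted over all 12 arrays with limma (version 3.58.1, R version 4.3.3), with an intensity trend, 2-sided tests and p-values adjusted by Benjamini-Hochberg across the tested probe sets, at 0.05. The fit was also run on simulated data with planted changes and independent normal noise. That does not show how it behaves where replicate arrays vary together. The number of arrays limits precision. Same-numbered arrays of both genotypes under trans-zeatin had deviations from their group means that correlated at 0.13 to 0.16 in all 3 pairs. Results with the replicate number as a block are therefore given beside that comparison. All main values come from the fit without a block. This use of the numbers comes from the data, not the labels.

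The member and the gene lists were chosen with earlier results of these data known. Genes named beside ARL were list members with a probe set of 1 gene, the 3 nearest such genes on either side, the 5 highest and 5 lowest correlations, and neighbours in the order of mutant changes. Other offsets, no filter, quantile normalization, no trend, array weights, a replicate block, separate fits and leaving out each array were tried.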

Additional observations from a re-analysis of the deposited data

Results flagged for a closer look

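EXPA15 had responses to trans-zeatin that differed between the genotypes in a direct test, by a log2 difference of -1.10 (limma adjusted p = 0.0031, from 5.4e-04 to 0.021 over 19 other settings). Its signal was 409 ± 36.8 (SD, n = 3) and 1040 ± 98.9 in wild type with DMSO and trans-zeatin, and 698 ± 28.2 and 824 ± 62.7 in the mutant. The change in the mutant alone, 0.24 on the log2 scale, did not pass (limma adjusted p = 0.35).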

How the results depend on the processing

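All 5 ARL differences kept their sign in every setting. They moved by more than the spread between replicates (0.36 on the log2 scale) only with the offset at the median, to -1.04 for the mutant response and -0.84 for the genotype difference under trans-zeatin. Leaving out 1 array gave -0.98 to -0.63 for the wild-type response, -1.77 to -1.27 for the mutant response, -0.97 to -0.47 for their difference, -0.82 to -0.32 for the genotypes under DMSO and -1.44 to -1.12 under trans-zeatin. Counts of called probe sets moved more. Against 1167, 163, 5, 671 and 309 in the same order, leaving out 1 array gave 558 to 1355, 59 to 188, 4 to 9, 163 to 901 and 151 to 361. Array weights gave 2193 in wild type, 22 for the difference and 1307 under DMSO, no filter gave 102 in the mutant and 420 under DMSO, and a fit of the mutant arrays alone gave 76. The cause was not tested.

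The main fit did not pair arrays by replicate number. Over all groups, 9 of 18 same-numbered pairs had deviations correlated above 0.1, and 9 of 12 arrays correlated best with their own number. With the replicate block the counts were 1399, 284, 7, 919 and 471, and the SE of the ARL responses and genotype differences was 0.17 against 0.23. Under trans-zeatin the block changed the call of EXPA15 and of no other tested named gene. Of 40 calls of the other named genes, 21 were kept in every setting, 10 of 135 results not called passed in at least 1 setting, and 0 reversed.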
